A study of Schizosaccharomyces pombe with 8 samples.

Results

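The comparison described here sets the fission yeast strain opi10- against the strain opi10+ before any heat was applied, while both grew at 30C. Its members are the 2 arrays, of 8 in the study, whose labels give culture at 30C with no heat treatment, 1 for opi10- and 1 for opi10+. Both strains are Schizosaccharomyces pombe grown in liquid Edinburgh Minimal Medium to the middle of logarithmic growth. The labels give the genotype only as opi10- or opi10+. They do not say how opi10 was altered, what other alleles the strains carry, or whether the arrays of a strain share a culture. The other 6 arrays, also 1 for each strain, come from cells held for 1 h at 43C, and from cells returned to 30C for 1 h and for 3 h after that heat. They are used here only to show what the genes that differ before heat did elsewhere. With 1 array for each strain, no difference below has a replicate check, no test was possible, and no SD between replicates can be given. "Higher" and "lower" describe these 2 arrays and not the strains at large.

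The protein encoded by opi10 belongs to the Hikeshi family. In human cells Hikeshi is an import carrier that takes HSP70 into the nucleus when cells are heated. HSP70 proteins bind unfolded stretches of other proteins and help them refold. In fission yeast, many genes of defence and storage metabolism are switched on by the kinase Sty1 and the transcription factor Atf1, which respond to heat, oxidants, osmotic stress and loss of nutrients. Genes for the use of poor carbon sources are held down by glucose, and genes for iron uptake are held down by the repressor Fep1 while iron is plentiful. Because RNA was taken from whole cultures, a change in all cells and a change in a share of them cannot be told apart.

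The arrays measured RNA as a fluorescence signal for each probe set, a group of short probes for 1 transcript. S. pombe probe sets had a median signal of 922.4 in opi10- and 1004 in opi10+. The array also carries probe sets for the budding yeast Saccharomyces cerevisiae, which give the signal seen without a target of their own. Their 95th percentile was 15.3 in opi10- and 16.9 in opi10+. Differences below are log2(signal + 16) in opi10- minus the same in opi10+, after the arrays were brought to 1 common distribution by quantile normalization. Signals are given as deposited. The targeted gene could not be checked by name, because the annotation pairs none of the named probe sets with opi10.

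Across the 2892 genes measured above the filter on low signals, the strains were close before heat. The SD of the difference over genes was 0.25 and its median was 0.03. In all, 1609 genes (55.6%) were higher in opi10- and 1271 (43.9%) were lower. At least 2-fold apart were 16 genes that were lower in opi10- (0.553% of those measured) and 3 that were higher (0.104%). At a limit of 1.5-fold, chosen after the values were seen, the numbers were 70 lower (2.42%) and 14 higher (0.484%). On the deposited scale, without quantile normalization, the median difference was -0.06, 1078 genes were higher and 1814 lower, and 27 were at least 2-fold lower. Counts of members above or below 0 therefore depend on the scale, and list counts below are read against 55.6% of all genes higher, 43.9% lower and 2.42% at least 1.5-fold lower.

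**Figure D1:**
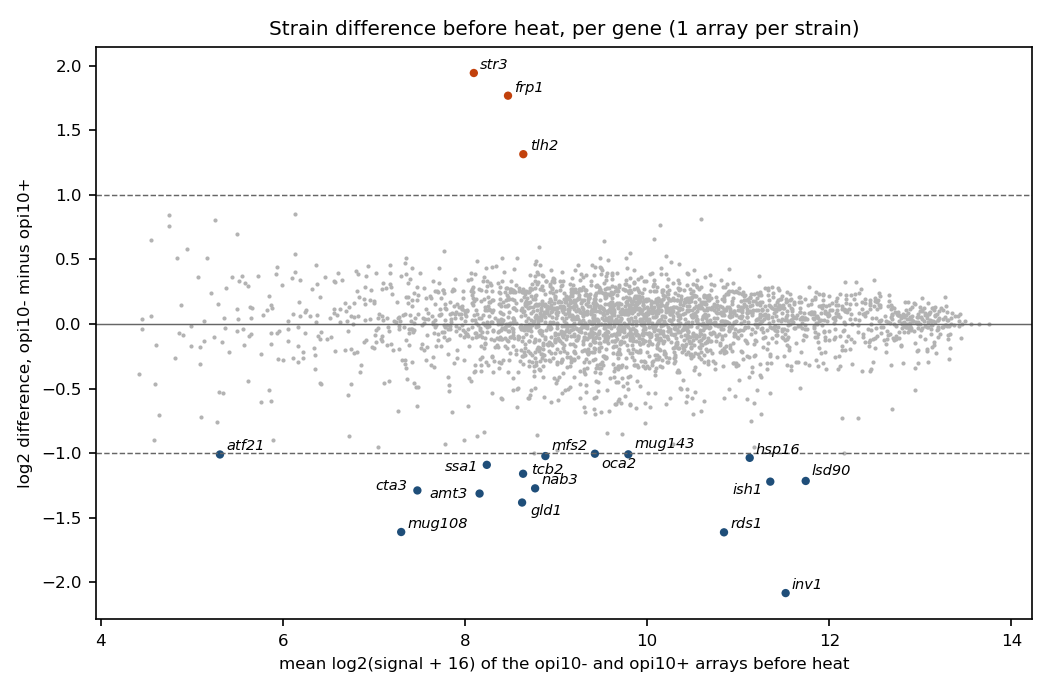
Each point is 1 of 2892 genes, with the mean of its log2(signal + 16) in both strains before heat on the horizontal axis and the log2 difference, opi10- minus opi10+, on the vertical axis. The 16 genes at least 2-fold lower in opi10- and the 3 at least 2-fold higher are coloured and named.

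The spread between the 2 arrays was also read from other probe sets. Among 2601 S. cerevisiae probe sets, 4 were at least 2-fold lower in opi10- and 0 were higher. Their median signal was 3.55, and with 16 added so dim a signal can hardly reach 2-fold, so that count covers noise at background only. The 21 control probe sets for spike-in RNA had a median difference of 0.01 and an SD of 0.26 on the deposited scale. Of these, 0 reached 2-fold, but their median signal was 11.0, so the same limit holds for many of them. Over all 213 control probe sets the SD on that scale was 0.51, with 1 at least 2-fold higher in opi10- and 1 lower. Dim genes scattered more than bright ones, with an SD of 0.32 among the 723 dimmest genes and 0.22 among the 723 brightest. Those dimmest genes held all 3 genes of the higher group and 8 of the 16 of the lower group, and the brightest held 5 of the 16. For 14 genes with several probe sets, the probe sets of a gene differed from each other by a median of 0.18, and by more than 0.5 for 3 genes.

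The largest difference of any named gene was that of inv1, which encodes invertase, the secreted enzyme that splits sucrose. The signal of inv1 was 1540.1 in opi10- and 6608 in opi10+, a log2 difference of -2.08, or 4.23-fold lower. Next in order was rds1, a transcript known to respond to nutrient supply, with 1121 in opi10- and 3745 in opi10+ and a difference of -1.61. The gene mug108 also differed by -1.61, with a signal of 66.4 in opi10- against 326 in opi10+. Over the settings tried its difference ranged from -2.05 to -1.23. The signals of inv1, rds1 and mug108 were well above the S. cerevisiae signal in both strains.

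Genes of metabolism and transport came next. The glycerol dehydrogenase gene gld1, which acts in the use of glycerol, had a signal of 249.9 in opi10- and 738 in opi10+ (-1.38). The ammonium transporter gene amt3 had 169 in opi10- and 532 in opi10+ (-1.31). The cation-transporting ATPase gene cta3 had 87.2 in opi10- and 331 in opi10+ (-1.29). These genes serve different substrates, and each was at least 2.44-fold lower in opi10-. The gene mfs2 had 358 in opi10- and 778 in opi10+ (-1.02). The gene tcb2, for a tricalbin of the kind that ties the endoplasmic reticulum to the plasma membrane, had 280.0 in opi10- and 698 in opi10+ (-1.16).

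Stress genes of known function were also among the 16. The gene ish1, for a stress-responsive protein of the nuclear envelope, had a signal of 1839 in opi10- and 4579.8 in opi10+ (-1.22). The small heat shock protein gene hsp16 had 1669 in opi10- and 3733 in opi10+ (-1.04). The cytosolic HSP70 gene ssa1 had 199.5 in opi10- and 522 in opi10+ (-1.09). Both chaperone genes were thus more than 2-fold lower in opi10- at a temperature where no heat had been given. The bZIP transcription factor gene atf21 had 10.2 in opi10- and 45.1 in opi10+ (-1.01). Its signal in opi10- lay below the 95th percentile of S. cerevisiae probe sets, so the size of its difference depends on the pseudocount and ranged from -1.67 to -0.46 over the settings tried.

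The other members of the 16 were nab3, with a signal of 296 in opi10- and 784 in opi10+ (-1.27), and lsd90, with 2434 in opi10- and 5913 in opi10+ (-1.21). The gene mug143 had 677 in opi10- and 1425 in opi10+ (-1.01), and the kinase gene oca2 had 528 in opi10- and 1107 in opi10+ (-1.003). Just short of 2-fold were srk1, for a kinase activated by Sty1, with 327 in opi10- and 712 in opi10+ (-0.999), and the metallothionein gene zym1, with 3779.8 in opi10- and 6989.7 in opi10+ (-0.99). Also just short was gut2, for the mitochondrial glycerol-3-phosphate dehydrogenase, with 401 in opi10- and 837 in opi10+ (-0.98). The 2-fold limit thus falls within a run of genes of nearly the same difference. The 16 genes were spread over the genome, with 8 on chromosome I, 5 on chromosome II and 3 on chromosome III, where 1297, 1099 and 490 genes were measured.

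**Figure D2:**
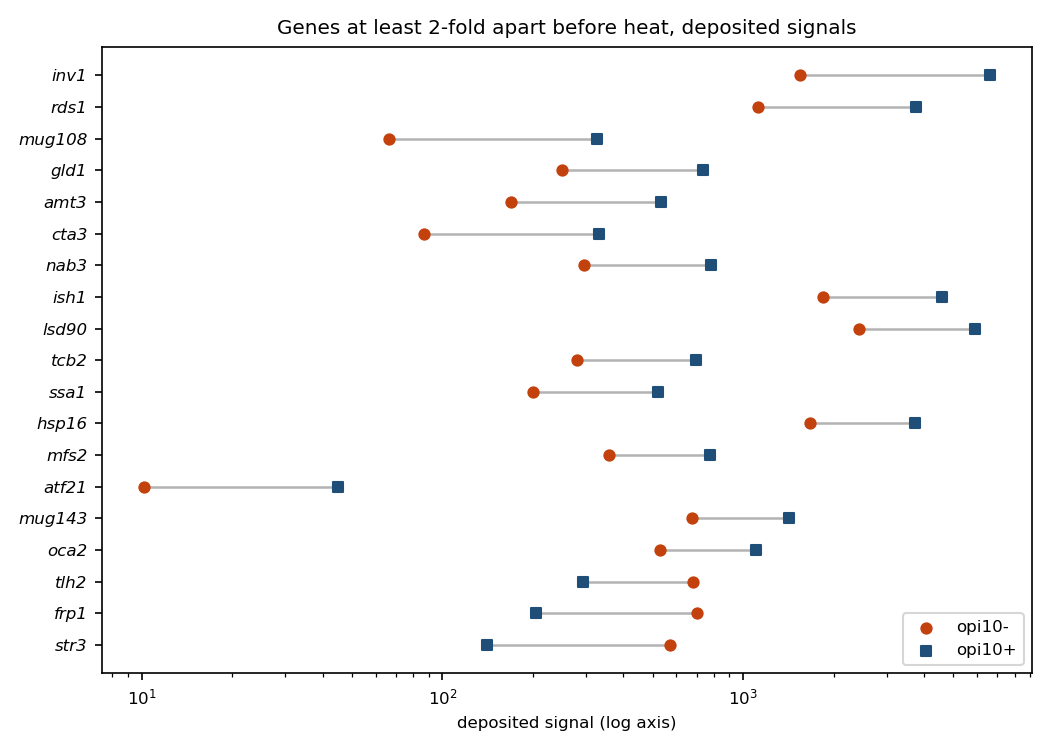
Deposited signals before heat, on a log axis, of the 19 genes at least 2-fold apart, with opi10- as circles and opi10+ as squares joined by a line for each gene. The 3 genes with the circle to the right are str3, frp1 and tlh2, and the 16 with the circle to the left run from inv1 to oca2.

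Gene lists were written for 32 pathways and families, and those described are given by their counts and their median. The lists share members, so a gene can stand in several of the counts below. Counts cover measured genes only. Measured were 35 of 38 names for core stress, 21 of 38 for autophagy and 49 of 128 for ribosome assembly. The list of core stress genes, which are known to be induced in fission yeast by several kinds of stress, stood lowest. Of its 35 measured members, 31 were lower in opi10- and 4 were higher, with a median difference of -0.65 against 0.03 over all genes. At least 1.5-fold lower were 19 of the 35, and 7 of them were among the 16 genes past 2-fold. These 7 were rds1, gld1, cta3, ish1, ssa1, hsp16 and atf21. The 4 on the other side were the thioredoxin gene trx2 (0.37), rsv1 (0.15, dim in both strains), the glutathione S-transferase gene gst2 (0.14) and plr1 (0.08). On the deposited scale the median of the list was -0.69, and it lay between -0.69 and -0.57 over the settings tried.

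The kinase cascade that controls many of those genes is itself encoded by genes of which some differed. Of 22 members measured, 17 were lower in opi10- and 5 were higher, with a median of -0.20, and 5 were at least 1.5-fold lower. Of these 5, 3 were also core stress genes, and without the 4 shared genes 13 of 18 were lower with a median of -0.15. The members farthest from 0 were srk1, pyp2, pcr1 and atf1. The gene pyp2, for a phosphatase that switches Sty1 off, had a signal of 201 in opi10- and 453 in opi10+ (-0.87). The gene atf1, for the transcription factor that Sty1 activates, had 651 in opi10- and 1101 in opi10+ (-0.67). Its dimer partner gene pcr1 had 613 in opi10- and 1047 in opi10+ (-0.68). The remaining member past 1.5-fold was the upstream kinase gene wis4, with 1376 in opi10- and 2184 in opi10+ (-0.60). The kinase gene sty1, with 1972 in opi10- and 2063 in opi10+ (-0.01), stood near the median of all genes. The kinase gene wis1, with 975 in opi10- and 918 in opi10+ (0.20), lay above that median by less than the SD over genes (0.25).

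Genes of oxidative and metal defence were mixed. Of 23 measured, 14 were lower in opi10- and 9 were higher, with a median of -0.12, and 5 were at least 1.5-fold lower. All 5 were also core stress genes, and of the 14 genes outside that list 7 were lower, with a median of -0.02. Besides zym1, the catalase gene ctt1 had a signal of 1785 in opi10- and 3760.5 in opi10+ (-0.95). The glutathione S-transferase gene gst1 had 69.3 in opi10- and 192 in opi10+ (-0.95), and gst3 had 966 in opi10- and 1951 in opi10+ (-0.93). The members with large differences were thus detoxifying enzymes and a metal-binding protein, while the glutathione S-transferase gene gst2 was not lower.

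All 10 measured genes of trehalose and glycerol metabolism were lower in opi10-, with a median of -0.43, against 43.9% of all genes below 0. The list shares 6 genes with the core stress list, among them all 3 that were at least 1.5-fold lower, and the other 4 had a median of -0.21. Trehalose and glycerol protect cells against heat and osmotic stress, and the list holds both genes for making them and genes for breaking them down. The members farthest from 0 were gld1, gut2, the glycerol-3-phosphate dehydrogenase gene gpd1, with a signal of 4441 in opi10- and 7046 in opi10+ (-0.73), and the trehalase gene ntp1, with 1766 in opi10- and 2842 in opi10+ (-0.56). The trehalose-6-phosphate synthase gene tps1 had 2443 in opi10- and 3406 in opi10+ (-0.35). The trehalose phosphatase gene tpp1 differed least, by -0.01.

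Of 22 genes for the use of other carbon sources and genes held down by glucose, 17 were lower in opi10- and 5 were higher. The median was -0.31, and 6 were at least 1.5-fold lower, of which 2 were core stress genes. Beside inv1 and gld1, the alpha-galactosidase gene mel1 had a signal of 22.6 in opi10- and 67.5 in opi10+ (-0.90). The gene fbp1, for the fructose-1,6-bisphosphatase of gluconeogenesis, had 682 in opi10- and 1281 in opi10+ (-0.85). The hexose transporter genes lay on both sides. Higher in opi10- were ght4 (0.40), ght5 (0.23), ght3 (0.16) and ght6 (0.12). Lower were ght2 (-0.49), ght7 (-0.39, dim in both strains), ght8 (-0.33) and ght1 (-0.07). In glycolysis and fermentation, 12 of 15 genes were lower (median -0.11), and the enolase gene eno102 stood apart with 2078 in opi10- and 3677 in opi10+ (-0.70). The next in size there were gpm1 (-0.27), zwf1 (-0.22) and fba1 (-0.20).

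Autophagy, by which cells degrade their own contents when nutrients run short, was among the lists with members on 1 side only. All 21 measured genes were lower in opi10-, and the median was -0.31, against 43.9% of all genes lower and a median of 0.03. None of them is in the core stress list. Only atg101 was as much as 1.5-fold lower, 1 of 21 against 2.42% of all genes, a share that does not set the list apart. Its signal was 99.9 in opi10- and 206 in opi10+ (-0.67). The gene atg13, for another subunit of the complex that starts autophagy, had 603 in opi10- and 967 in opi10+ (-0.57). The genes atg7 and atg3, for enzymes that attach the ubiquitin-like protein Atg8 to lipid, had 332 in opi10- and 521 in opi10+ (-0.51), and 500.0 in opi10- and 757 in opi10+ (-0.51). The gene atg8 itself differed by -0.07. Among genes that respond to nitrogen starvation, 18 of 24 were lower, with a median of -0.14, led by inv1, rds1, amt3 and the amino acid permease gene cat1 (-0.58).

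The iron uptake genes divided. Of 15 measured, 8 were higher in opi10- and 7 were lower, with a median of 0.00 (-0.14 on the deposited scale). Its members made up 5 of the 14 genes that were at least 1.5-fold higher. The largest differences upward of any gene were those of str3, a transporter gene of the siderophore and heme iron group, with a signal of 573 in opi10- and 141 in opi10+ (1.94), and of the ferric reductase gene frp1, with 704 in opi10- and 204 in opi10+ (1.77). The siderophore transporter gene str1 had 2202 in opi10- and 1324 in opi10+ (0.82). The iron oxidase gene fio1 had 1583 in opi10- and 1004 in opi10+ (0.76), and fip1, for the permease that works with it, had 1464 in opi10- and 987 in opi10+ (0.66). Other members named for similar steps did not differ in this way, with the reductase gene frp2 at -0.20 and the transporter genes str2 at 0.00 and abc3 at -0.08. The regulator genes php4 (0.36) and grx4 (0.23) were higher in opi10-. The siderophore synthesis genes sib1, with 2274 in opi10- and 3261 in opi10+ (-0.39), and sib2, with 243 in opi10- and 368 in opi10+ (-0.37), were lower in opi10-, and the repressor gene fep1 differed by -0.09.

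The other gene at least 2-fold higher was tlh2, a helicase gene near the chromosome ends, with a signal of 682 in opi10- and 295 in opi10+ (1.31). It has 4 probe sets that differ in their result. Another gave 1.00, with 231 in opi10- and 113 in opi10+. The remaining ones were dimmer. They gave 0.15, with 18.0 in opi10- and 16.8 in opi10+, and 0.09, with 46.3 in opi10- and 49.6 in opi10+. The mean of all 4 was 0.64. The genes of the ends come in near-identical copies, so the signal cannot be assigned to 1 copy. The next 7 genes in order included str1 and fio1, given above, and 5 dim genes. The meiotic cohesin gene rec8 had 68.7 in opi10- and 39.1 in opi10+ (0.85). The signals of mug62 (0.84), rec27 (0.80) and grt1 (0.76) were below the 95th percentile of S. cerevisiae probe sets in opi10+, and mug68 had 37.2 in opi10- and 19.6 in opi10+ (0.70).

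**Figure D3:**
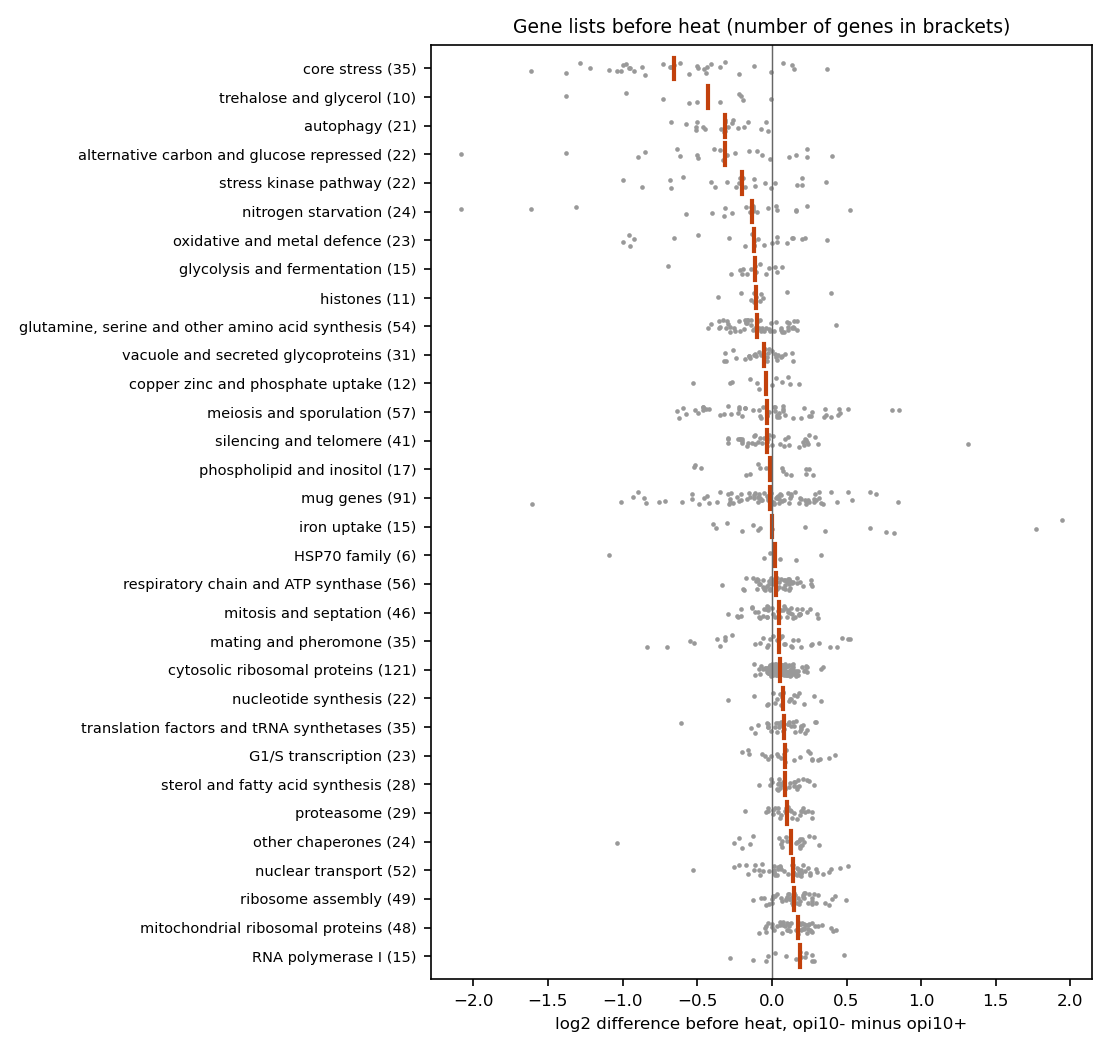
Log2 difference before heat, opi10- minus opi10+, for the members of the 32 gene lists, with 1 grey point for each gene and a bar at the median of each list. Core stress genes stand lowest with a median of -0.65, and all 21 autophagy genes and all 10 trehalose and glycerol genes lie below 0.

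The HSP70 family, the cargo of the human relative of Opi10, had 1 member, ssa1, past 1.5-fold. Of 6 genes measured, 3 were higher in opi10- and 3 were lower, with a median of 0.02. Beside ssa1, the other cytosolic gene ssa2 had a signal of 7599.7 in opi10- and 7942 in opi10+ (-0.01). The ribosome-associated member sks2 had 8583 in opi10- and 8422 in opi10+ (0.06). The mitochondrial gene ssc1 had 8099 in opi10- and 8449.6 in opi10+ (-0.06). The gene bip1, for the HSP70 of the endoplasmic reticulum, had 4852 in opi10- and 4509 in opi10+ (0.16), and pss1, for an HSP110-type relative, had 5878 in opi10- and 5151 in opi10+ (0.33). Except for ssa1 these genes were bright in both strains, and their differences lay between -0.06 and 0.33. Of the 24 other chaperone genes, 18 were higher in opi10- (55.6% of all genes were), with a median of 0.13. The gene hsp16 was the only one past 1.5-fold, followed by cdc37 (0.32), mas5 (0.28) and psi1 (-0.26).

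Lists of growth genes lay slightly above the median of all genes, and the members of those given here were all within 1.5-fold. Of 49 ribosome assembly genes, 44 were higher in opi10- (55.6% of all genes were), with a median of 0.14. RNA polymerase I genes were higher in 11 of 15 cases (median 0.19). The largest differences were those of utp23, with a signal of 957 in opi10- and 739.7 in opi10+ (0.49), and rpa34, with 1564 in opi10- and 1174 in opi10+ (0.48). Next in ribosome assembly were ppp1 (0.42), lsg1 (0.40) and crb3 (0.38), and in RNA polymerase I nuc1 (0.28), rrn11 (-0.28) and rpc10 (0.27). Mitochondrial ribosomal protein genes were higher in 43 of 48 cases (median 0.18), led by mrpl19 (0.43), mrp17 (0.41), mrpl28 (0.40) and mrpl39 (0.34). The cytosolic ribosomal protein genes stood closer to all genes, with 89 of 121 higher and a median of 0.05, and rpp203 (0.34), rpl1603 (0.33), rpl802 (0.24) and rpl803 (0.23) farthest from 0. Proteasome genes were higher in 25 of 29 cases (median 0.10), led by rpn1302 (0.27), cut8 (0.27), rpn8 (0.24) and rpn11 (0.22). These counts and medians depend on where 0 is set. On the deposited scale 37 of 49 ribosome assembly genes, 9 of 15 RNA polymerase I genes and 32 of 48 mitochondrial ribosomal protein genes were higher. Of all 2892 genes, 1078 were higher on that scale. On that scale the medians were 0.07 for ribosome assembly, 0.09 for RNA polymerase I and 0.07 for mitochondrial ribosomal proteins, where the median of all genes was -0.06.

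Nuclear transport, the process in which the human relative of Opi10 works, had 40 of 52 genes higher in opi10- and a median of 0.14, close to that of ribosome assembly. On the deposited scale 28 were higher and the median was 0.02, where 1078 of all 2892 genes were higher with a median of -0.06. Its members farthest from 0 were nup131 (-0.53), nup61 (0.51), hba1 (0.46) and cut11 (0.39). Mating and pheromone genes had a median of 0.05, with gnr1, for a protein of the pheromone pathway, at 216 in opi10- and 468 in opi10+ (-0.83). Next were the pheromone genes mfm1 (-0.70, dim in both strains) and mfm3 (-0.55) and the meiosis gene mei2 (0.52). The other probe set of mfm1, also dim, gave 0.16. The 56 respiratory chain genes had a median of 0.03, with atp14 (-0.33), coq10 (0.27), cox6 (0.26) and oxa102 (0.26) farthest from 0. The 54 amino acid synthesis genes had a median of -0.10, with ser2 (0.43), arg3 (-0.43), arg7 (-0.41) and cys11 (-0.36) farthest. Of 11 histone genes 9 were lower, with a median of -0.11, led by hhf3 (-0.36), hht2 (-0.21) and hhf2 (-0.14), while cnp1, for the centromeric histone, was higher at 0.39. Some histone probe sets may be shared between gene copies, so these genes may not be separate measurements. The 91 mug genes, named for raised transcripts in meiosis, had a median of -0.01 and held mug108, mug143, mug150, with 141 in opi10- and 363 in opi10+ (-0.93), and the dim mug27 (-0.90). In all, 16 of the 32 lists had a median below that of all genes on both scales, 12 had one above it on both, and 4 changed side between the scales.

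Of the 16 genes past 2-fold in the lower group, 11 (68.8%) were in at least 1 list, against 36.2% of all genes measured, and the lists were written with earlier results of these data known. The 5 in none were nab3, lsd90, tcb2, mfs2 and oca2. Neighbours in the order of the gene table made up 6 pairs in which both genes were past 1.5-fold. They were jmj1 and atg101, pcm2 and mel1, and the iron genes fip1 and fio1 on chromosome I, and oca2 with gnr1, mug150 with srk1 and brl1 with pep3 on chromosome III. The genes of brl1 and pep3 lay on opposite sides of 0, and those of the other 5 pairs on 1 side, where 70 genes past 1.5-fold were lower and 14 higher over all genes. These are 2.42% and 0.484% of all genes. The number of neighbour pairs that such shares would give was not computed, so the count of 6 has no background.

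The differences before heat were set beside those in the other 3 conditions, which come from other arrays. The 16 genes were picked by their difference before heat, so a smaller difference on other arrays does not by itself show an effect of the condition. Of the 16 genes, 14 were lower and 2 higher in opi10- after 1 h at 43C, where 45.7% of all genes were lower and 53.7% higher. Their median was -0.15, with a range from -0.63 to 0.05, and 0 were past 2-fold, against 0.311% of all genes lower and 0.0692% higher. After 1 h of recovery, 10 were lower and 6 higher (46.7% of all genes lower and 52.6% higher), with a median of -0.15, and 0 were past 2-fold (0.0692% of all genes in each direction). After 3 h, 8 were lower and 8 higher (49.1% of all genes lower and 50.1% higher), with a median of -0.03. At 3 h nab3 was the only one past 2-fold (0.104% of all genes lower, 0.45% higher), with a signal of 1063 in opi10- and 2279 in opi10+ (-1.14). For inv1 the signals after 3 h were 7600.5 in opi10- and 6547 in opi10+, so that the gene with the largest difference before heat was then slightly brighter in opi10-. For ssa1 they were 9548 in opi10- and 10612 in opi10+ at 43C, and for hsp16 they were 7058 in opi10- and 7001 in opi10+.

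**Figure D4:**
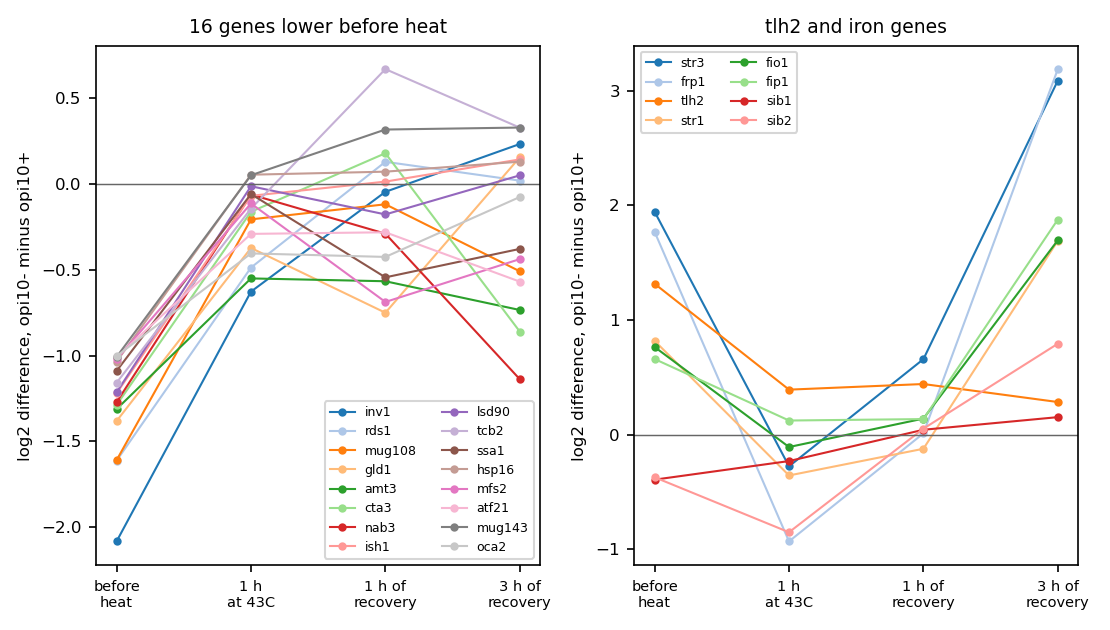
Log2 difference, opi10- minus opi10+, in the 4 conditions in order of time, with 1 line for each gene. The left panel shows the 16 genes at least 2-fold lower before heat, which lie between -0.63 and 0.05 at 43C, and the right panel shows tlh2 and 7 iron genes, of which frp1 and str3 exceed 3 at 3 h of recovery.

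The differences of the lists also varied with the condition. The core stress list, with its median of -0.65 before heat, had medians of -0.07 at 43C, -0.01 at 1 h and 0.02 at 3 h of recovery. Counts of lower members below are read against all genes, of which 45.7% were lower at 43C, 46.7% at 1 h and 49.1% at 3 h. Of the 21 autophagy genes, all lower before heat, 13 were lower at 43C, 9 at 1 h and 5 at 3 h. Of the 10 trehalose and glycerol genes, 8 were lower at 43C, 6 at 1 h and 1 at 3 h. Ribosome assembly genes, of which 5 of 49 were lower before heat, were lower in 13 cases at 43C, 26 at 1 h and 45 at 3 h. The iron genes differed from these lists. At 3 h of recovery 12 of 15 were higher in opi10- (50.1% of all genes were). Past 2-fold were 5, against 0.45% of all genes. The signal of str3 was then 487 in opi10- and 41.3 in opi10+ (3.09), and that of frp1 was 1281 in opi10- and 162 in opi10+ (3.19). At 43C, 14 of the 15 were lower in opi10-, and str3 had 13.5 in opi10- and 17.3 in opi10+, near the signal of probe sets without a target.

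The response to 43C uses the same arrays before heat, so a lower start in opi10- enters that strain's response and is not independent of the difference already given. Of the 16 genes, 15 were at least 2-fold higher at 43C than before in opi10- (12.2% of all genes), with a median response of 2.66. In opi10+, 12 of the 16 were (12.8% of all genes), with a median response of 1.77. The exception past 2-fold in the other direction in each strain was inv1 (12% of all genes in opi10- and 12.2% in opi10+), with responses of -1.51 in opi10- and -2.97 in opi10+. For ish1 the response was 2.26 in opi10- and 1.12 in opi10+, and for hsp16 it was 2.41 in opi10- and 1.32 in opi10+.

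**Figure D5:**
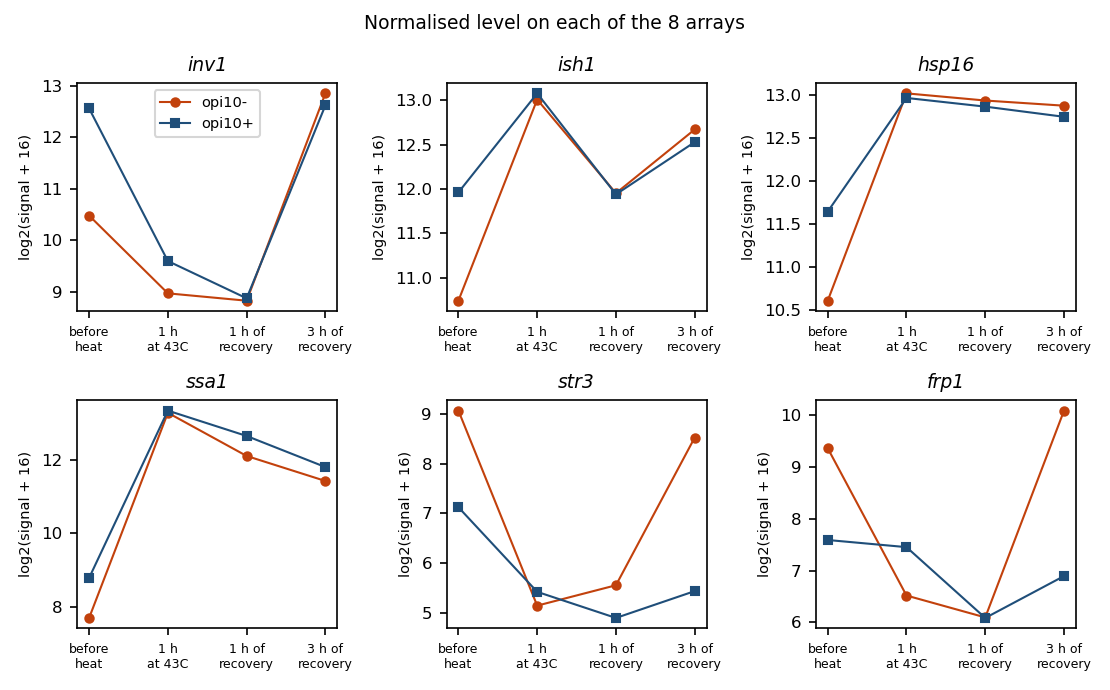
Normalised level, log2(signal + 16), on each of the 8 arrays for inv1, ish1, hsp16, ssa1, str3 and frp1, with opi10- as circles and opi10+ as squares, 1 array for each point. The strains are apart before heat in every panel, because all of these genes were picked from those at least 2-fold apart before heat. For ish1, hsp16 and ssa1 they lie close together at 43C, while str3 and frp1 are apart again at 3 h of recovery.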

How the data were processed

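Per the labels' protocols, RNA from phenol and chloroform extraction was labelled as biotinylated cRNA by 3' priming and hybridised to Affymetrix arrays. The authors deposited 1 table of linear intensity values for 10928 probe sets on 8 arrays. The sources used here do not give the method that summarised the probes, any scaling between arrays or the genome build. No sequences were used here, and of gene positions only the chromosome and the order in the gene table. Gene names came from the platform annotation, with 113 symbols updated through the ASM294v3 gene table. The table held 2914 probe sets with 1 S. pombe gene (2896 genes), 2601 with 1 S. cerevisiae gene, 213 controls, 20 with several genes, 3 that could not be placed and 5177 unnamed.

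Computed here, in Python 3.11.15 with numpy 2.4.6 and pandas 2.3.3, were log2(value + 16), quantile normalization of all 8 arrays over S. pombe probe sets, and the difference between the strains. Kept were genes whose mean log2 value exceeded the 75th percentile of S. cerevisiae probe sets (a signal of 5.72), with the brightest probe set for a gene that has several. This left 2892 genes. Array medians over S. pombe probe sets ran from 492.5 to 1096. The calculation was tested on simulated data whose changed genes were kept to middling signals after very bright ones had been understated. With 1 array for each strain the number of arrays limits the precision, and there is no test and no p-value.

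The comparison, the gene lists and the tests were chosen with earlier results of these data known. After the values were seen, 29 names were dropped from the lists because the symbol belongs to another gene or was misplaced. The genes named are those at least 2-fold apart, the 10 highest and 16 lowest, the HSP70 family, and the 4 members farthest from 0 of each list described. Other genes were chosen after their values were seen, to show the near side of a list, neighbours or the pathway's regulators. Alternatives were the deposited scale, centring, quantile normalization of the 2 arrays alone, pseudocounts of 1 and 64, no filter or the 95th percentile, the mean of all probe sets, and a limit of 1.5-fold added after the values were seen.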

Additional observations from a re-analysis of the deposited data

Results flagged for a closer look

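Probe sets with no gene in the annotation are outside the comparison above, and some of them differed. Of 2974 such probe sets above the filter on low signals, 1.68% were at least 2-fold apart before heat, 48 lower in opi10- and 2 higher, on the deposited scale centred on the median difference of all named genes. Among the 2892 named genes on the same scale the share was 0.864%, with 22 lower and 3 higher.

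The unnamed probe set with the largest difference, 1772771_at, differed by -4.90 before heat, with a signal of 1.31 in opi10- and 525 in opi10+. The signal in opi10- was below the 95th percentile of S. cerevisiae probe sets (15.3), so the size of this difference is set by the pseudocount of 16. In opi10- it stayed at the level of S. cerevisiae probe sets on the other arrays, with 1.16 at 43C, 0.535 at 1 h and 1.48 at 3 h of recovery, against 1147, 448 and 818 in opi10+. The annotation used here does not say which transcript it measures.

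The unnamed probe set 1779357_at differed by -1.97, with 78.9 in opi10- and 373 in opi10+. At 43C it had 2175 in opi10- and 5373 in opi10+ (-1.35), at 1 h of recovery 742 in opi10- and 3787 in opi10+ (-2.37), and at 3 h 1067 in opi10- and 3471 in opi10+ (-1.63). These were the 2 unnamed probe sets that were at least 2-fold apart in the same direction in all 4 conditions.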

How the results depend on the processing

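The count of genes at least 2-fold lower in opi10- was 16 and that of genes at least 2-fold higher was 3. They became 27 lower on the deposited scale and 28 lower and 11 higher with a pseudocount of 1. At the added limit of 1.5-fold they were 70 lower and 14 higher. The deposited scale and the pseudocount of 1 kept all 16 genes. Centring each array on its median, and quantile normalization of the 2 arrays alone, each gave 17, of which 13 were among the 16, and a pseudocount of 64 gave 11, all among the 16. No filter and the 95th percentile left 16 and 3, and the mean of all probe sets left 16 and 2. None of the 19 genes past 2-fold changed sign under any setting tried, and the core stress median stayed between -0.69 and -0.57 and the autophagy median between -0.40 and -0.28 over the settings. In 6 lists the sign of the median differed between the deposited and the normalised scale. Dim genes moved with the pseudocount, as cta3 did from -1.42 at 1 to -1.01 at 64, and with the scale, with cta3 at -1.75 as deposited. The planned search for promoter motifs was not run, because promoter sequences were not used here. No paired analysis was possible because each group has 1 array.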

Other observations

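The wtf genes, a family of spore-killing and antidote genes that lie in repeats, were looked at after their values were seen. Of 15 measured, 14 were lower in opi10- before heat and 1 was higher, with a median of -0.36, and the lowest was wtf9 at -0.53, with a signal of 271 in opi10- and 451 in opi10+. They were lower in opi10- in 8 cases at 43C, 12 at 1 h and 7 at 3 h of recovery. Of all genes, 43.9% were lower before heat, 45.7% at 43C, 46.7% at 1 h and 49.1% at 3 h. Several of the wtf probe sets are shared between copies, so these genes are not separate measurements.

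The gene ura4, a uracil synthesis gene often used as a strain marker, had a signal of 29.8 in opi10- and 26.2 in opi10+ before heat, not far above the S. cerevisiae probe sets in both strains.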
